A study of Mus musculus with 12 samples.

Results

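The genes described here encode the TREM receptors, their shared adaptor DAP12 and the enzymes that act directly behind it: *Trem1*, *Trem2*, *Tyrobp*, *Syk*, *Plcg2* and *Inpp5d*. They were selected on the difference between thymol and DMSO measured in these same libraries, and all 6 listed symbols were found among the 10697 genes analysed. Their levels and differences are therefore given as a description. Whether a member passed the threshold applied to all genes is stated, but nothing is read from it. Primary mouse adult fibroblasts (MAFs) had been grown out of minced biopsies of wild-type (WT) C57BL6/j mice. The cultures received 100 µM thymol, a phenolic monoterpene of thyme oil, for 24 h, or the same volume of its solvent DMSO, and each group held 6 libraries numbered 1 to 6. Neither the age of the animals nor whether the libraries of a group came from separate cultures is given in the sources used here, so p-values below measure the spread between libraries, which may be technical. QuantSeq 3′ mRNA sequencing reads the 3′ end of polyadenylated RNA and yields about 1 read per transcript whatever its length, which lets levels of different genes be set side by side. Levels are log2 CPM, the binary logarithm of reads scaled to a common library size (CPM) with a small prior added.

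TREM receptors sit on the surface of myeloid cells such as macrophages, neutrophils and microglia, and have too short a cytoplasmic tail to signal alone. Each pairs within the membrane with DAP12, the product of *Tyrobp*, whose immunoreceptor tyrosine-based activation motif (ITAM) is phosphorylated by Src-family kinases and then binds the kinase SYK. SYK activates the phospholipase PLCγ2 and phosphoinositide 3-kinase, and the lipid phosphatase SHIP1, encoded by *Inpp5d*, removes the phosphoinositide that this kinase makes. TREM1 is known as an amplifier of inflammatory cytokine production, and TREM2 as a receptor for lipids and lipoproteins that supports survival and lipid handling in macrophages, osteoclasts and microglia.

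Both receptor genes lie on the plus strand of chromosome 17, and the 250 bases before each RefSeq start are printed because *Trem1* and *Trem2* were the members that moved, in opposite directions. The windows are chr17:48232489-48232738 for *Trem1* and chr17:48346151-48346400 for *Trem2* (RefSeq, build GRCm38.p6). Capitals mark the matches to the motifs searched on both strands, and the next base after each sequence is the RefSeq start. For *Trem1* it lies before the GENCODE start at 48232768 that is given below.
Trem1: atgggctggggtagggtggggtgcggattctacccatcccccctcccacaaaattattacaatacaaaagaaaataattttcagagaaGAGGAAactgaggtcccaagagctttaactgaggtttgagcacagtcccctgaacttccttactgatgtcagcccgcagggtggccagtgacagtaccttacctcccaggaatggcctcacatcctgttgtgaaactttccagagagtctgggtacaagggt
Trem2: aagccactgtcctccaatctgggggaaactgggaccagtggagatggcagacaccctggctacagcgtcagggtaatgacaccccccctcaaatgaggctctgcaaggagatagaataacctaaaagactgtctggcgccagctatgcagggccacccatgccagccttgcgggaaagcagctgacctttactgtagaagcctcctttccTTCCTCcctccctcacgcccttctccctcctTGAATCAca
The letters searched were GAGGAA, a core bound by the myeloid factor PU.1, TGANTCA as a loose form of the AP-1 site, TTGCNNAA for C/EBP, GGG and CC with any 5 bases between them for NF-kB, TGACGT for the CRE core and TATAAA for the TATA box. The *Trem1* window held GAGGAA 162 bases before the start. In the *Trem2* window the same core lay on the minus strand, printed as TTCCTC, 40 bases before the start, and TGAATCA lay 9 bases before it. Among all 32851 RefSeq windows of this length, 23.3% held GAGGAA on either strand and 6.75% held TGANTCA. The other 4 motifs had no match in either window, and were held by 9.56% (C/EBP), 45.8% (NF-kB), 6.47% (CRE core) and 12.4% (TATA box) of all windows. A match describes letters only. GC made up 49.6% of the *Trem1* window and 56.0% of the *Trem2* window.

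The libraries held between 5435985 and 9049796 whole reads, with a median of 6132734 for thymol and 6949062 for DMSO. Of 20 fibroblast markers, 18 were among the genes analysed, averaging 8.03 ± 0.031 in thymol and 8.14 ± 0.033 in DMSO libraries (SD over 6 libraries a group, log2 CPM). This mean was lower with thymol (difference -0.11, exact two-sided permutation test, p = 0.00216, the smallest that 924 relabellings allow), and 2 collagen genes among them, *Col1a1* and *Col3a1*, passed the test across all genes. Macrophage markers stood at a similar height although the label names fibroblasts: 18 of 20 were among the genes analysed, with a mean of 8.31 ± 0.054 in thymol libraries (8.27 to 8.42) and 8.37 ± 0.032 in DMSO libraries (8.32 to 8.42). That difference was -0.063 (exact two-sided permutation test, p = 0.0455), and it did not pass in 10 of the 12 comparisons that each left out 1 library, nor when libraries of the same number were compared (p = 0.0625). Of the macrophage markers, *Ctss* passed as higher, and *Itgam* and *Cd14* as lower. For other cells that can carry TREM receptors, 2 of 12 neutrophil markers (*S100a8* and *Mmp8*) and 1 of 11 dendritic cell markers (*H2-Ab1*) were analysed. The neutrophil markers averaged 3.87 ± 0.41 with thymol and 4.04 ± 0.31 under DMSO (difference -0.17, exact two-sided permutation test, p = 0.452). *H2-Ab1* read 1.53 ± 0.47 with thymol against 2.59 ± 0.59 (difference -1.06, exact two-sided permutation test, p = 0.0108; limma adjusted p over all genes = 0.069), and its part in the difference of *Trem1* was not tested. Osteoclast markers, 6 of 10, averaged 4.66 ± 0.20 with thymol and 4.48 ± 0.11 with DMSO (difference 0.18, exact two-sided permutation test, p = 0.0823). Among them *Atp6v0d2* passed as higher, while *Mmp9* had a log2 fold change of -0.72 and did not pass (limma adjusted p = 0.089). In RNA from whole cultures, fewer cells of a type and less RNA per cell cannot be told apart.

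*Trem1*, the inflammatory receptor (chromosome 17, 48232768 to 48246924), was the member with the lowest level and the largest difference. Thymol libraries read 0.86 at the lowest, 2.63 at the median and 3.10 at the highest, and DMSO libraries read 3.86, 4.33 and 4.55 (log2 CPM). All 6 thymol values lay below all 6 DMSO values. Mean levels were 2.42 ± 0.83 and 4.23 ± 0.28 (SD over 6 libraries a group), and their difference of -1.81 ± 0.25 (SE) corresponds to a 3.51-fold lower level on this scale. In whole reads, a thymol library held between 9 and 74 *Trem1* reads (median 38) and a DMSO library between 100 and 186 (median 131.5). Thymol replicate 2, with 9 reads, was the lowest library, and without it the log2 fold change was -1.50. Adding a pseudocount of 10 CPM before the logarithm gave -0.88, because a larger pseudocount compresses the differences of genes with few reads.

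*Trem2*, the lipid-binding receptor (chromosome 17, 48346401 to 48354147), was expressed far above *Trem1* and moved the other way. Its levels in the thymol libraries ran from 7.98 over a median of 8.09 to 8.15, and in the DMSO libraries from 7.71 over 7.85 to 7.93 (log2 CPM). Here too the groups did not overlap, with every thymol library above every DMSO library. The means of 8.07 ± 0.070 and 7.84 ± 0.084 (SD, n = 6 each) differed by a log2 fold change of 0.23 ± 0.057 (SE), an increase of 17.1%. It rested on a mean of 1755 reads per thymol library and 1622 per DMSO library.

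**Figure D1:**
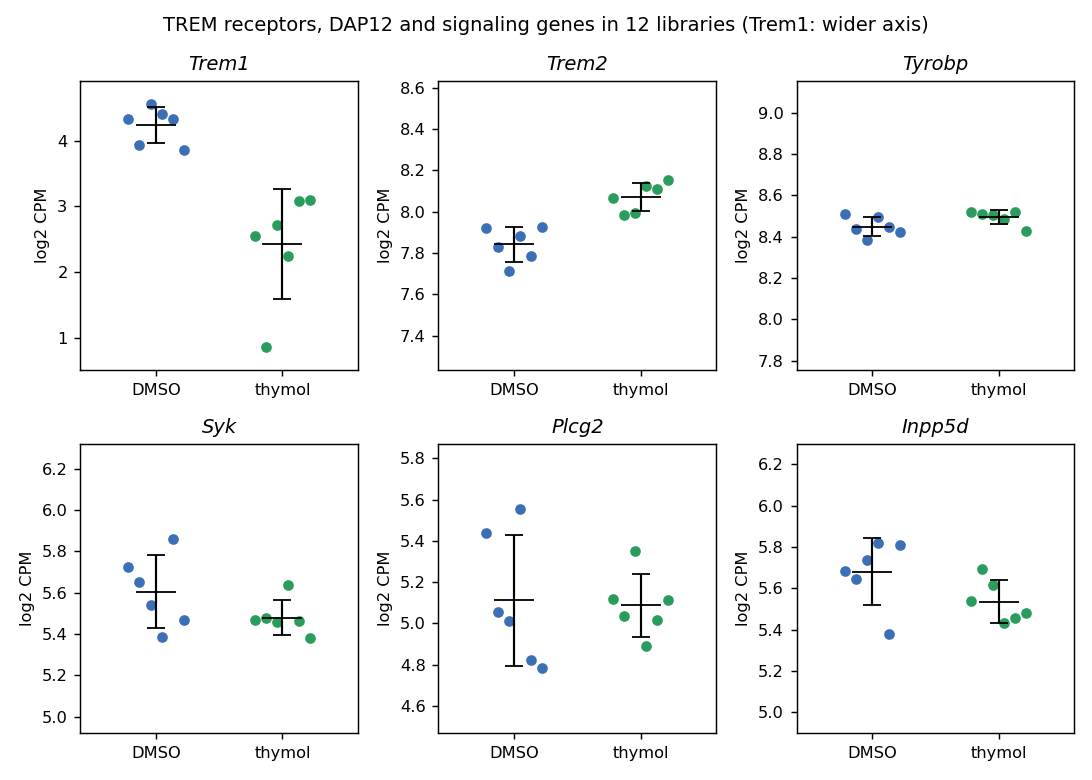
Level in log2 CPM of each of the 6 members (vertical axis, differing between panels and widest for *Trem1*) in 6 DMSO libraries (blue) and 6 thymol libraries (green), with the mean and SD in black. The groups are apart for *Trem1*, from 0.86 to 3.10 with thymol against 3.86 to 4.55 with DMSO, and for *Trem2*, and overlap in the other 4 panels.

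Across the 6 members, 2 passed the limma threshold (adjusted p under 0.05): 1 higher and 1 lower. Among all genes, 238 of 10697 (2.22%) did so, 70 of them higher (0.654%) and 168 lower (1.57%). The groups did not overlap for 2 members, and for 180 of all genes (1.68%). Since the members were chosen by this contrast, nothing is read from these counts, nor from whether a member passed under an alternative. *Trem2* no longer passed without a mean-variance trend, in the odd-numbered or even-numbered libraries alone, without thymol replicate 6 or without DMSO replicate 3, where its log2 fold change was between 0.20 and 0.25.

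The receptor genes are neighbors in a cluster of TREM family genes, with 99.48 kb from the end of *Trem1* to the start of *Trem2*. From *Trem1* to *Treml1* the annotation lists 7 protein-coding genes on the plus strand, of which 4 were analysed. *B430306N03Rik*, between the receptor genes, had a level of 3.58 ± 0.35 with thymol and 3.98 ± 0.39 with DMSO (log2 fold change -0.40 ± 0.19, SE). *Treml1*, which encodes a TREM-like receptor known from platelets and lies next to *Trem2*, had 2.94 ± 0.25 and 3.03 ± 0.27 (log2 fold change -0.093 ± 0.23, SE). Within this stretch, *Trem2* was thus the only analysed gene whose mean was higher with thymol, and neither neighbor passed the limma threshold.

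**Figure D2:**
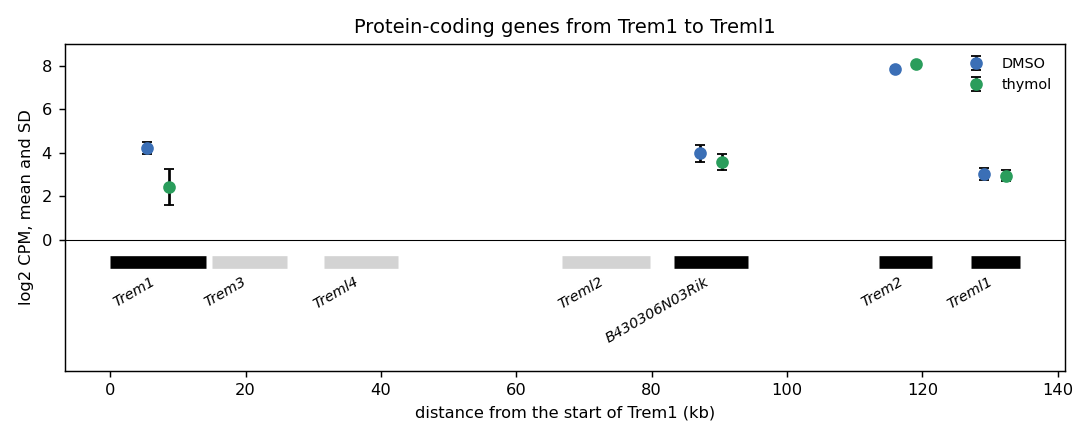
Mean log2 CPM with SD (vertical axis, n = 6 each; DMSO blue, thymol green) of the analysed genes, placed over the gene bodies along the distance from the start of *Trem1* in kb. Black bars are analysed genes and gray bars are genes not analysed here. The means of *Trem1* are 4.23 with DMSO and 2.42 with thymol, while those of *Trem2* are 7.84 and 8.07.

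*Tyrobp*, which encodes the adaptor DAP12 (chromosome 7, 30413760 to 30417585), was the most abundant member. Its thymol libraries lay between 8.43 and 8.52 (median 8.51) and its DMSO libraries between 8.39 and 8.51 (median 8.44), and 3 of 6 thymol values were above every DMSO value. The groups overlapped, and the means of 8.50 ± 0.035 and 8.45 ± 0.045 gave a log2 fold change of 0.046 ± 0.051 (SE). *Hcst*, the gene of the related adaptor DAP10, lies tail to tail with it on the opposite strand, with 126 bp between the annotated ends, and had a level of 2.60 with thymol and 2.88 with DMSO. *Fcer1g*, which encodes the ITAM adaptor of Fc receptors, was the most abundant gene of the adaptor and kinase list (9.28 and 9.24, limma adjusted p = 0.83). Per 100 *Tyrobp* reads a library held 173 ± 9.76 *Fcer1g* reads with thymol and 173 ± 7.05 under DMSO (SD over 6 libraries), and the ranges overlapped.

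*Syk*, the kinase that docks on phosphorylated DAP12 (chromosome 13, 52583173 to 52648792), read 5.38 to 5.64 with thymol (median 5.46) and 5.38 to 5.86 with DMSO (median 5.60). Its log2 fold change was -0.13 ± 0.10 (SE), with the groups overlapping. *Plcg2*, the phospholipase downstream of SYK (chromosome 8, 117498291 to 117635142), read 4.89 to 5.35 with thymol (median 5.08) and 4.79 to 5.55 with DMSO (median 5.03). The thymol libraries lay within the range of the DMSO libraries, and the log2 fold change was -0.024 ± 0.12 (SE). *Inpp5d*, the inhibitory phosphatase SHIP1 (chromosome 1, 87620312 to 87720507), read 5.43 to 5.69 with thymol (median 5.51) and 5.38 to 5.82 with DMSO (median 5.71), a log2 fold change of -0.14 ± 0.098 (SE). Here the lowest DMSO library, replicate 5 at 5.38, lay below all thymol libraries, while the other 5 lay between 5.65 and 5.82. Over the 24 alternatives the log2 fold change of *Syk* ranged from -0.25 to -0.0021, *Plcg2* from -0.12 to 0.071 and *Inpp5d* from -0.22 to -0.062.

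Ordered by mean level over the 12 libraries, *Tyrobp* came first, then *Trem2*, *Inpp5d*, *Syk*, *Plcg2* and *Trem1*. *Tyrobp* exceeded *Trem2* by 0.52 and *Trem2* exceeded *Inpp5d* by 2.35 (difference in mean log2 CPM), each in 12 of 12 libraries and with no overlap of their ranges. *Inpp5d* and *Syk* did not differ beyond their spread, with a difference of 0.065 and the same order in 7 of 12 libraries. *Syk* was above *Plcg2* in 11 of 12 libraries by 0.44 on average, though their ranges overlapped, and *Plcg2* was above *Trem1* in all 12 by 1.77. *Tyrobp* and *Trem2* had mean levels above those of 96.4% and 93.9% of all genes, and *Trem1* above 16.9%.

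The balance of the receptors was also read as ratios of whole reads within a library, which need no scaling between libraries. Per 1000 *Trem2* reads, a thymol library held between 6.03 and 29.6 *Trem1* reads (median 22.7) and a DMSO library between 58.4 and 110 (median 85.2). The ranges did not overlap, and the means were 21.0 ± 8.97 and 82.6 ± 18.6 (SD, n = 6 each). Against the adaptor, *Trem2* stood at 74.6 ± 4.93 reads per 100 *Tyrobp* reads with thymol and 65.7 ± 2.94 with DMSO, and these ranges met, since the lowest thymol library had 69.3 and the highest DMSO library 70.9. For *Syk* the ratio to 100 *Tyrobp* reads was 12.3 ± 0.74 and 13.9 ± 1.72, with overlapping ranges. *Inpp5d* reads per 100 *Syk* reads, phosphatase against kinase, were 104 ± 10.5 and 108 ± 23.2, again overlapping.

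**Figure D3:**
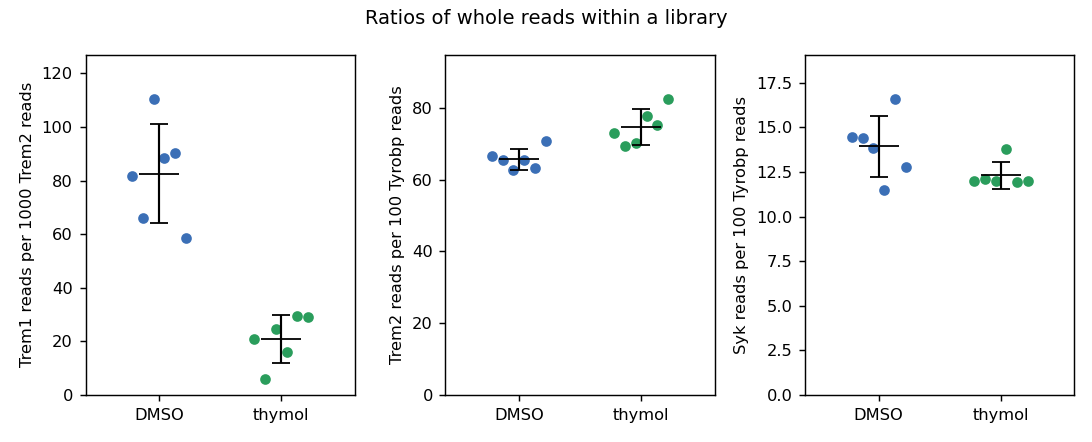
Whole reads of *Trem1* per 1000 *Trem2* reads, of *Trem2* per 100 *Tyrobp* reads and of *Syk* per 100 *Tyrobp* reads (vertical axes, from 0) in 6 DMSO libraries (blue) and 6 thymol libraries (green), with mean and SD in black. The first ratio is at most 29.6 in the thymol libraries and at least 58.4 in the DMSO libraries, whereas the groups overlap in the other panels.

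Because the macrophage marker mean also differed slightly, each member was set against it within the same library. That mean includes genes that themselves passed: *Cd14* and *Itgam* (log2 fold changes -0.78 and -0.31) and *Ctss* (0.26). Over the 18 markers the median log2 fold change was -0.034, with 7 above 0 and 11 below. The mean is therefore not a measure of macrophage content alone. Relative to that mean, *Trem1* was lower with thymol by a log2 difference of -1.75 and *Trem2* higher by 0.29, and in neither case did the groups overlap. *Tyrobp* differed by 0.11, *Plcg2* by 0.040, *Syk* by -0.062 and *Inpp5d* by -0.080, all with overlapping groups. What the macrophage content contributes to the members' differences was not tested beyond these values.

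The genes around the members were read from 9 lists with 158 distinct symbols, of which 128 were analysed. Of these, 25 (19.5%) passed the limma threshold, 12 higher and 13 lower, against 2.22% of all genes. The lists were chosen with earlier results of these data known. Their genes also had a higher median level (6.13 against 5.02 log2 CPM for all genes). Nothing is therefore read from this count or from the counts per list below. The 21 other receptors listed include several that signal through DAP12 or a related ITAM adaptor. Others on the list, such as *Treml1* and *Csf1r*, do not belong to that class. Of the 21, 10 were analysed and 2 passed, both lower. These were *Cd300ld*, which encodes an activating receptor of the CD300 family (6.49 ± 0.23 with thymol and 6.97 ± 0.23 with DMSO, limma adjusted p = 0.00048), and *Itgam*, the integrin chain CD11b (7.74 ± 0.10 and 8.05 ± 0.068, limma adjusted p = 0.00071). The median log2 fold change of the 10 was -0.23, against 0.0026 for all genes. All 10 values were below 0, as were 5256 of all 10697 genes. The 10 values were also below 0 after median centring, quantile normalization and in voom. These alternatives reuse the same libraries and cannot correct for how the list was chosen, so nothing is read from the shared direction. *Pilrb1* and *Pilrb2*, with values of -0.86 and -0.81, did not pass (limma adjusted p = 0.20 and 0.13). Both rest on few reads, with means of 18 with thymol and 37.5 with DMSO for *Pilrb1*, and 31.2 and 57 for *Pilrb2*. They are near-identical copies, as some CD300 genes are to each other, so reads that match more than 1 copy may be missing from the counts.

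Inhibitory receptors, which carry motifs that recruit phosphatases, moved in both directions: of 13 listed, 10 were analysed, 1 passed as higher and 2 as lower, with a median of -0.11. *Pilra*, the inhibitory partner of the PILRβ receptors, was 5.19 ± 0.24 with thymol and 5.77 ± 0.13 with DMSO (limma adjusted p = 0.00030), and *Cd300lf* was 3.98 ± 0.20 and 4.61 ± 0.21 (limma adjusted p = 0.0086). The groups did not overlap for either gene. *Lair1*, a collagen receptor, was higher with 6.64 ± 0.14 against 6.32 ± 0.22 (limma adjusted p = 0.024), but did not pass in 3 of the 12 fits that left out 1 library (those lacking replicate 3 or 5 of thymol or replicate 2 of DMSO, with log2 fold changes of 0.31, 0.29 and 0.25).

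The intracellular relay behind the receptors was read from 4 of the lists. Of 62 genes for adaptors and kinases, scaffolds, lipid enzymes and their effectors, and negative regulators, 57 were analysed and 0 passed in limma, a count near the share of all genes that passed (2.22%). An unadjusted p under 0.05 was found for 8 of the 57, and for 1261 of all 10697 genes. In voom on whole reads 0 passed as well. *Lyn*, the Src-family kinase at the top of the cascade, was 6.86 ± 0.12 with thymol and 7.06 ± 0.072 with DMSO (limma adjusted p = 0.14). *Lat2* and *Grb2*, the most expressed scaffold genes, had log2 fold changes of 0.17 and 0.011 (limma adjusted p = 0.24 and 0.98), and *Akt1* and *Ptk2b*, kinases behind phosphoinositide and calcium signals, of -0.050 and -0.022 (limma adjusted p = 0.79 and 0.96). For *Inppl1*, the SHIP2 phosphatase related to *Inpp5d*, the value was 0.12, and for the ubiquitin ligase gene *Cbl* it was -0.096 (limma adjusted p = 0.42 and 0.66). The nearest to the threshold, chosen after its values were seen, was *Prkcb*, a protein kinase C activated by the lipid that PLCγ2 releases (log2 fold change 0.24, limma adjusted p = 0.052), which passed under 8 of the 24 alternatives. *Dok1*, an adaptor that restrains the cascade, passed under 1 of them.

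**Figure D4:**
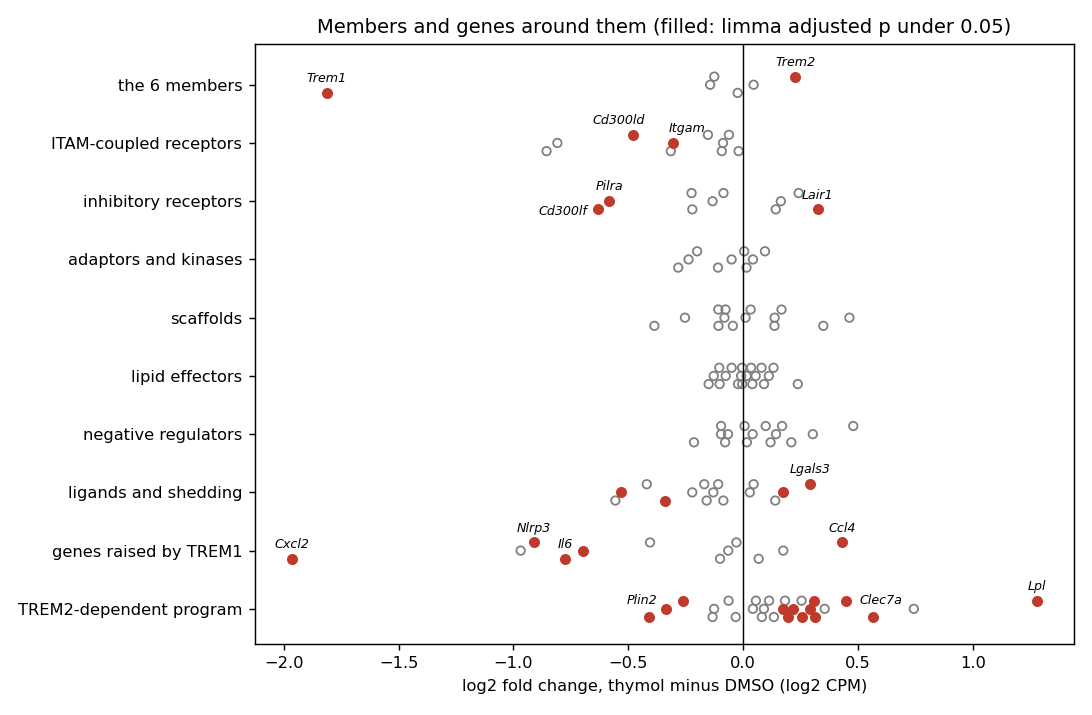
Log2 fold change, thymol minus DMSO (horizontal axis), of the 6 members and of the analysed genes of 9 lists around them (rows; vertical jitter only separates points). The row named as ITAM-coupled receptors also holds genes outside that class, such as *Treml1* and *Csf1r*. Red filled points passed the limma threshold and open points did not. The row named as a TREM2-dependent program holds listed genes whose dependence on TREM2 was not tested. *Trem1* is at -1.81 and *Trem2* at 0.23, 0 of 57 points in the adaptor, scaffold, lipid effector and negative regulator lists are filled, and *Cxcl2* at -1.96 and *Lpl* at 1.28 mark the ends.

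Ligands and the machinery that sheds TREM receptors were found on both sides, with 15 of 19 genes analysed, 2 higher and 2 lower, and a median of -0.13. *Apoe*, whose lipoprotein product binds TREM2, was 13.14 ± 0.039 with thymol and 12.96 ± 0.047 with DMSO (limma adjusted p = 0.011), and *Lgals3*, the TREM2 ligand galectin-3, was 10.63 ± 0.13 and 10.33 ± 0.043 (limma adjusted p = 7.0e-05). *Ms4a6d*, of the family whose human relatives are linked to soluble TREM2, was 6.91 ± 0.16 and 7.26 ± 0.11 (limma adjusted p = 0.0024). The 12 libraries fell into non-overlapping groups for each of these 3 genes.

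Inflammatory genes known to be raised by TREM1 signaling were represented by 12 of 18 listed, of which 4 passed as lower and 1 as higher, with a median of -0.25. *Cxcl2*, a neutrophil chemoattractant, was 2.29 ± 0.44 with thymol and 4.26 ± 0.32 with DMSO (limma adjusted p = 8.4e-09), resting like *Trem1* on few reads, with means of 31.2 and 136 reads per library. *Il6* was 3.50 ± 0.19 and 4.27 ± 0.19 (limma adjusted p = 0.0033), again without overlap. *Nlrp3*, the inflammasome sensor, and *Il1rn*, the interleukin-1 receptor antagonist, had log2 fold changes of -0.91 and -0.70 (limma adjusted p = 0.017 and 0.039), with overlapping groups. *Nlrp3* did not pass in 4 of the 12 fits without 1 library (thymol replicate 1 or 4, DMSO replicate 2 or 4) and *Il1rn* did not pass in 7 (thymol replicate 2, 4 or 5, DMSO replicate 1, 2, 3 or 6), with log2 fold changes of -0.84 to -0.76 and -0.69 to -0.57. The chemokine gene *Ccl4* went the other way, from 5.55 ± 0.18 to 5.98 ± 0.22 (limma adjusted p = 0.0078).

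Of 28 genes listed for a lipid-associated program linked to TREM2 in macrophages and microglia, 27 were analysed. Of these, 10 passed as higher and 3 as lower, with a median of 0.17. Whether each of them depends on TREM2 was not tested. *Lpl*, which encodes lipoprotein lipase, stood at 9.63 ± 0.11 in the thymol and 8.35 ± 0.14 in the DMSO group, which differ by 1.28 ± 0.057 on the log2 scale (SE; limma adjusted p = 4.2e-24). The lysosomal protease gene *Ctsd* was 12.67 ± 0.11 and 12.36 ± 0.070 (limma adjusted p = 6.9e-06), and the β-glucan receptor gene *Clec7a*, whose product signals through SYK, was 7.62 ± 0.28 and 7.06 ± 0.19 (limma adjusted p = 1.1e-05). *Gpnmb*, a glycoprotein of lysosomes, was 11.23 ± 0.077 and 10.92 ± 0.13 (limma adjusted p = 3.2e-05), and *Lgals3* and *Apoe*, given above as ligands, are also on this list. Against them stood *Plin2*, which coats lipid droplets, with 7.51 ± 0.081 and 7.92 ± 0.086 (limma adjusted p = 6.1e-06), *Abca1*, a cholesterol exporter, and *Hif1a*. The last pair, chosen after their values were seen, had log2 fold changes of -0.34 and -0.26 (limma adjusted p = 0.0080 and 0.027). Without a mean-variance trend only 2 genes of this list passed, 1 in each direction, and 2 of the TREM1 list, both lower.

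The variation left within the groups was compared between genes after the mean of each group had been subtracted, over the 12 libraries and among the genes with a mean level of at least 5. These values describe shared variation in libraries that may also share a preparation. For each member the 3 genes with the highest Pearson values, of about 5394, are given. The highest of so many values over 12 libraries can be large between unrelated genes too, so no relation is read from them. The genes most like *Trem1* were *Ccn5*, *Dctn5* and *Trp53bp1* (Pearson 0.88, 0.88 and 0.86, and Spearman 0.58, 0.72 and 0.72), where the single low library counts heavily. *Trem2* was most like *Ubtf*, *Aprt* and *Csnk1a1* (Pearson 0.87, 0.86 and 0.84), and *Tyrobp* most like *Smarca5*, *Ehd4* and *Blvrb* (Pearson 0.81, 0.80 and 0.78). *Syk* followed *Zfand6*, *C2cd2l* and *Zdhhc2* (Pearson 0.88, 0.88 and 0.87), *Plcg2* followed *Mcu*, *Gopc* and *Cox5a* (Pearson 0.94, 0.85 and 0.84), and *Inpp5d* followed *Npc1*, *Pak1ip1* and *Fgd4* (Pearson 0.92, 0.89 and 0.86). Between members, the values ran from -0.76 for *Syk* and *Inpp5d* to 0.55 for *Tyrobp* and *Plcg2*, and the receptors *Trem1* and *Trem2* had 0.26 by Pearson and -0.028 by Spearman.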

How the data were processed

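Total RNA of 12 MAF libraries was profiled by QuantSeq 3′ mRNA sequencing. Per the labels and the study's methods, the authors aligned reads to GRCm38 with STAR 2.5.3, counted them per gene with HTSeq 0.6.1, required 30 or more reads in 6 or more samples per gene and scaled libraries by TMM. The deposited values are log2 CPM, made by the authors with a prior count before the logarithm. Whole reads were recovered from the equal steps of the low values: of the values below 200 reads, 100% were whole to within 0.02, the prior equalled 1.96 reads in an average library, and 98.0% of genes met the stated filter. A prior of this kind understates fold changes of genes with few reads, and reads are PCR products, so depth speaks of counting error only.

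Differences were fitted with limma 3.58.1 in R 4.3.3 (lmFit and trended eBayes on 2 groups, all 12 libraries, two-sided, Benjamini-Hochberg over 10697 genes, threshold 0.05), and the procedure was tested on simulated data. The main fit used the deposited log2 values, and no count model was fitted to the recovered reads. Limma's voom on the recovered reads was an alternative, and shared 226 of its calls with the 238 of the log2 fit. The other alternatives were pseudocounts of 0.5, 2 and 10, a minimum mean level of 3, median centring, quantile normalization, no trend, the replicate number as a block, odd and even library numbers, and leaving out each library. Marker means were compared by exact permutation tests. The members and all gene lists were chosen with earlier results of these data known. Named were the members, up to 6 genes past the threshold with the smallest p-values per list, the 2 most expressed genes where fewer than 2 passed, and the 3 genes most correlated with each member. Of the genes this rule names, 1 is not reported here. Coordinates are from GENCODE vM21 on GRCm38. Promoter windows are from RefSeq (GRCm38.p6), searched for *Trem1* and *Trem2*.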

Additional observations from a re-analysis of the deposited data

Results flagged for a closer look

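In each group of 6 libraries, the highest or lowest value of a member, a named gene, a marker mean or the read total was set apart where its gap to the nearest library took up more of the group's range than Dixon's 95% critical value allows. Of 72 groups tested, 8 had such a library, and chance alone would give about 3.6. Among the members, only *Syk* had 1: thymol replicate 4 read 5.64 log2 CPM, above the next thymol library at 5.48. Around it, *Fcer1g* read 9.45 in thymol replicate 1 (nearest 9.30), *Akt1* read 8.74 in thymol replicate 5 (nearest 8.84) and 8.80 in DMSO replicate 2 (nearest 8.89). *Ms4a6d* read 6.60 in thymol replicate 4 (nearest 6.89), and *Apoe* read 13.06 in thymol replicate 5 (nearest 13.13). The macrophage marker mean was 8.42 in thymol replicate 1 (nearest 8.31). Thymol replicate 5 held 9049796 reads (nearest 6585162). The low *Trem1* value of thymol replicate 2 (0.86, nearest 2.24) came close to the critical value but did not exceed it.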

How the results depend on the processing

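The 6 members kept the direction of their log2 fold change under all alternatives, except *Plcg2*, which ranged from -0.12 to 0.071. With a pseudocount of 10, *Trem1* moved to -0.88. Without a mean-variance trend 57 genes passed, 1 member and 7 pathway genes, against 238, 2 and 25. The odd-numbered libraries alone gave 70 genes, 1 member and 10 pathway genes, and the even-numbered libraries alone 1 member and 13 pathway genes. The member lost was *Trem2* in each case. Nothing is read from the member counts, since the members were chosen by this contrast. Leaving out 1 library in turn gave 172 to 270 genes, 1 to 2 members and 20 to 28 pathway genes. The macrophage marker mean differed by -0.085 to -0.054 in those comparisons. The cause of these changes was not tested.

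Whether the numbers of the labels pair the libraries could not be settled, since weak correlations do not exclude pairing. Deviations of same-numbered libraries correlated between -0.0506 and 0.27 over 5394 genes. Of the 6 thymol libraries, 2 were most like the DMSO library of their own number. With the replicate block, 332 genes, 2 members and 33 pathway genes passed, against 238, 2 and 25 without it. The macrophage marker mean, at -0.063, no longer passed (exact sign-flip test, p = 0.0625). Among the members, *Trem1* had the fewest reads, with 9 in the lowest library.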
